A study of Mus musculus with 2 samples.

Results

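The genes Gbx2, Tcf7l2, Lef1, Rora, Rorb, Prox1, Foxp2, Irx1, Irx2 and Irx3 encode transcription factors that mark the thalamus and the pretectum, the caudal divisions of the diencephalon that lie directly in front of the midbrain. They were taken by name, with earlier results of these data known. All 10 were matched to an Ensembl gene of the deposited gene tables, which hold 43346 Ensembl genes. Their levels were read in total RNA of midbrain dissected from B6NCrl mouse embryos at embryonic day 16.5. The series has 1 group, healthy embryos with no mutant allele, transgene or treatment in the labels, and 2 libraries that the labels number as biological replicates 1 and 2. Each library came from a pool of male and female midbrains. The label of replicate 2 states 37 embryos, the label of replicate 1 states no number, and both carry the same donor identifier. From each pool 10 ng of RNA longer than 200 nucleotides were used. With 1 group of 2 pools the data allow neither a p-value nor a comparison of conditions, and the spread between the pools may be in part technical.

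The thalamus relays sensory input to the cerebral cortex, and the pretectum takes part in visual reflexes. Both territories form behind the prethalamus under Wnt signals, in which Tcf7l2 and Lef1 act as DNA-binding partners of beta-catenin. Gbx2, Rora, Rorb, Prox1 and Foxp2 are known from postmitotic thalamic neurons. The Iroquois genes are expressed across the caudal forebrain and midbrain.

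Replicate 1 held 31830355 expected counts over 23524 genes, and replicate 2 held 36576263 over 23769 genes. The labelled tissue was checked on 10 genes of the midbrain territory, of which 7 were at 1 TPM or more in both libraries. TPM expresses a level per transcript length, with an equal sum over genes in every library. Otx2 stood at 56.3 TPM in replicate 1 and 64.5 TPM in replicate 2. Tfap2b stood at 118 TPM in replicate 1 and 184 TPM in replicate 2, and Pou4f1 at 63.7 TPM and 52.5 TPM. En2, Pax2 and Lmx1b were below 1 TPM in both libraries. Of 6 Hox genes of the hindbrain none reached 1 TPM in both libraries. Hoxb4 had no count in either, which allows a level of up to 0.0657 TPM in replicate 1 and 0.0564 TPM in replicate 2, and Hoxa3 and Hoxb3 had no count in replicate 2.

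All 10 factors were detected, at 1 TPM or more in both libraries, beside 13333 of 21474 protein-coding genes. Tcf7l2, the HMG-box factor of the Wnt pathway that marks thalamus, habenula and pretectum, stood far above the others. Its level was 906 TPM in replicate 1 and 681 TPM in replicate 2, a mean of 793 ± 159 TPM (SD, n = 2), which is rank 102 among the protein-coding genes. The next factor, Foxp2, had a mean level 10.3-fold lower. In bulk tissue fewer cells that use a gene and less RNA per cell cannot be told apart, so each level is an average over the dissected block.

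Foxp2, a forkhead factor whose human counterpart is mutated in a speech disorder, had a level of 76.0 TPM in replicate 1 and 78.3 TPM in replicate 2. Lef1, the other HMG-box factor of the set, stood at 58.8 TPM in replicate 1 and 68.6 TPM in replicate 2. Rora, a nuclear receptor needed by cerebellar Purkinje cells and present in thalamic relay neurons, stood at 44.2 TPM in replicate 1 and 36.0 TPM in replicate 2. These 3 genes held the same order in both libraries. Gbx2, a homeodomain factor needed for thalamic differentiation, stood at 53.1 TPM in replicate 1 and 25.0 TPM in replicate 2. It therefore lay above Rora and Irx2 in replicate 1 and below both in replicate 2. Prox1, a homeodomain factor of newborn neurons and of lymphatic endothelium, stood at 28.0 TPM in replicate 1 and 13.1 TPM in replicate 2. Rorb, a nuclear receptor of sensory thalamic nuclei and retina, stood at 15.5 TPM in replicate 1 and 19.2 TPM in replicate 2. Prox1 was above Rorb in replicate 1 and below it in replicate 2.

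The Iroquois genes gave nearly the same level in both pools. Irx2 had 28.7 TPM in replicate 1 and 28.9 TPM in replicate 2, and its mean was 28.8 ± 0.141 TPM (SD, n = 2). Irx3 had 14.4 TPM in replicate 1 and 14.7 TPM in replicate 2, and Irx1 had 6.56 TPM and 6.14 TPM. Irx1 was the lowest of the 10 factors in both libraries, at rank 10294 among protein-coding genes by its mean level. Ordered by mean TPM, the 10 factors make 9 neighbouring pairs, and in 6 of these both values of the higher gene lay above both values of the lower. The exceptions were Rora and Gbx2, Gbx2 and Irx2, and Prox1 and Rorb, so no order is given within these pairs. Over all 45 pairs of factors, 40 were apart by that measure.

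**Figure D1:**
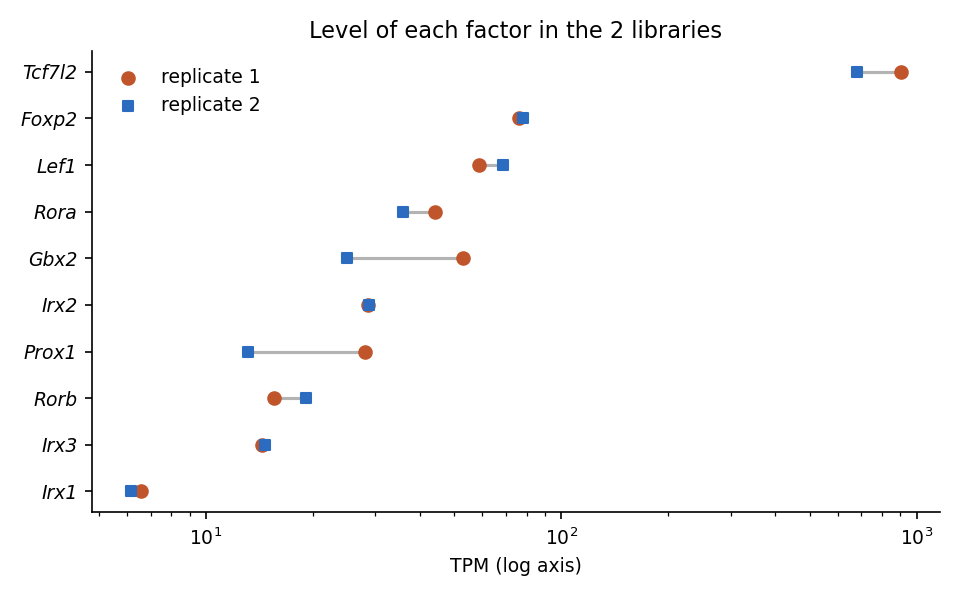
Level of each of the 10 factors in TPM, on a log axis, with replicate 1 as a circle and replicate 2 as a square joined by a line. Tcf7l2 lies far to the right at 906 and 681 TPM, and the long lines belong to Gbx2 (53.1 and 25.0 TPM) and Prox1 (28.0 and 13.1 TPM).

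The genes lie on 7 chromosomes in the mm10 assembly, and all are protein-coding. Gbx2 (ENSMUSG00000034486.8) lies at chr1:89927956-89931179 on the minus strand, and Prox1 (ENSMUSG00000010175.9) at chr1:190118035-190170714, also on the minus strand. Tcf7l2 (ENSMUSG00000024985.14) lies at chr19:55741820-55933654 on the plus strand and Rorb (ENSMUSG00000036192.11) at chr19:18930605-19111196 on the minus strand. Lef1 (ENSMUSG00000027985.10) lies at chr3:131110471-131224356, Foxp2 (ENSMUSG00000029563.12) at chr6:14901349-15441977 and Rora (ENSMUSG00000032238.13) at chr9:68653786-69388246, all on the plus strand. Irx1 (ENSMUSG00000060969.8) at chr13:71957921-71963723 on the minus strand and Irx2 (ENSMUSG00000001504.10) at chr13:72628820-72634198 on the plus strand are 665 kb apart. Irx3 (ENSMUSG00000031734.12) lies at chr8:91798525-91802067 on the minus strand. The genes differ in size, with Rora covering 734 kb, Foxp2 541 kb and Gbx2 only 3.22 kb.

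Gbx2 and Prox1 differed between the pools, and the other 8 factors did not pass 2-fold. The difference is given as the log2 ratio of expected counts, replicate 1 over replicate 2, with 0.5 added and each library scaled by TMM (a trimmed mean of ratios over all genes). Beside it stands a 95% interval (exact, Clopper-Pearson) that covers counting error only. Gbx2 had 1778 expected counts in replicate 1 and 959 in replicate 2, a log2 ratio of 1.07 (interval 0.96 to 1.19), or 2.10-fold. Prox1 had 3371 expected counts in replicate 1 and 1868 in replicate 2, a log2 ratio of 1.03 (interval 0.95 to 1.12), or 2.05-fold. So 2 of 10 factors were past 2-fold, both higher in replicate 1. Among the 14412 genes whose expected count averaged 50 or more, 93 were past 2-fold, which is 0.645%. Of these, 42 (0.291%) were higher in replicate 1 and 51 (0.354%) were higher in replicate 2. By the size of the log2 ratio in either direction, Gbx2 was 77th and Prox1 86th of the 14412 genes. Both intervals reach below the 2-fold line, so counting error alone leaves either gene on either side of it.

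The log2 ratio of Rora was 0.34 (interval 0.26 to 0.43) from 2588 expected counts in replicate 1 and 2315 in replicate 2. That of Tcf7l2 was 0.28 (interval 0.26 to 0.30), from 45220 and 42292 expected counts. In the other direction, the log2 ratio of Rorb was -0.34 (interval -0.41 to -0.26), from 2338 and 3348 expected counts, and that of Lef1 was -0.26 (interval -0.32 to -0.20), from 3494 and 4746. For these 4 genes the interval excluded 0 but the difference was within the range that held the middle of all genes tested, which ran from -0.41 at the 5th percentile to 0.33 at the 95th, except that Rora lay just above it. Foxp2, Irx1, Irx2 and Irx3 had log2 ratios between -0.06 and 0.09, and each interval included 0. The median log2 ratio of the 10 factors was 0.08 and that of all genes tested was -0.01. The median size of the ratio, without its sign, was 0.27 for the factors and 0.12 for all genes tested. The sign of the ratio was positive for 6 of the factors and negative for 4, beside 48.1% positive among all genes tested. That of Irx2 was negative (-0.01) when taken from deposited TPM.

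**Figure D2:**
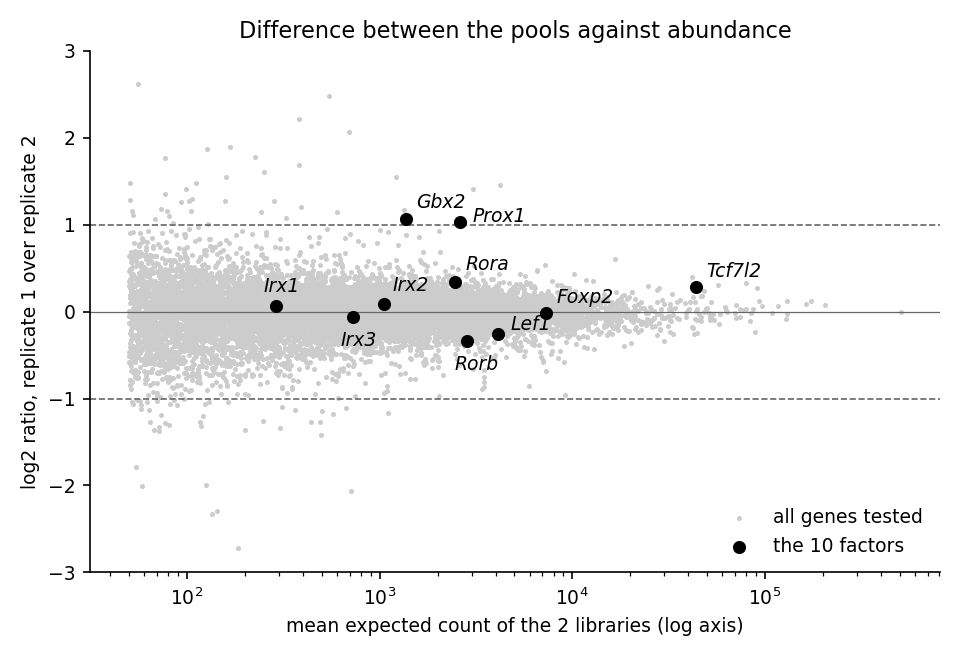
Log2 ratio, replicate 1 over replicate 2, of scaled expected counts against the mean expected count (log axis) for all genes with a mean of at least 50 (grey) and the 10 factors (black), with dashed lines at 2-fold. Gbx2 and Prox1 lie on the upper line, the other 8 lie inside, and 8 genes fall outside the vertical range drawn.

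Since the ratio of Gbx2 and of Prox1 was nearly equal, their relation to each other was nearly constant, with a TPM of Gbx2 that was 1.90-fold that of Prox1 in replicate 1 and also 1.90-fold in replicate 2. Against Tcf7l2 they moved, and the TPM of Tcf7l2 was 17.1-fold that of Gbx2 in replicate 1 and 27.3-fold in replicate 2. The protein-coding genes whose levels in the libraries were nearest to those of Gbx2, by distance in log2 TPM among 13267 genes, were Eif2s3y, Dlx1 and Smim4. Eif2s3y, a Y-linked gene for a translation factor subunit, had 50.2 TPM in replicate 1 and 25.6 TPM in replicate 2, at a distance of 0.087. Dlx1, a homeodomain factor of prethalamic and forebrain interneurons, lay at a distance of 0.195, and Smim4, a gene for a small membrane protein, at 0.322 with 43.0 TPM and 26.9 TPM. This likeness is over 2 libraries only.

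Transcripts on the other strand moved with both genes. D130058E05Rik, on the strand opposite to Gbx2, shares 946 of the 2177 exon bases of Gbx2. It had 3.62 TPM in replicate 1 and 1.44 TPM in replicate 2, a log2 ratio of 1.48 (interval 1.06 to 1.93). Prox1os, which starts 418 bases from the start of Prox1 and shares 133 of its 8390 exon bases, had 16.0 TPM in replicate 1 and 6.41 TPM in replicate 2, a log2 ratio of 1.27 (interval 0.93 to 1.63). Both passed 2-fold in the same direction as their neighbour. Another antisense transcript within Prox1, Gm28172, shares none of its exon bases and had 3.72 TPM and 2.96 TPM. Irx3os, opposite to Irx3, shares 124 of 2762 exon bases and stood at 1.15 TPM and 1.21 TPM.

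How the counting treated the strand is not given in the sources used here. In replicate 1 the expected counts of Gbx2 and D130058E05Rik were 1778.24 and 157.76, which add to a whole number. The same held in replicate 2, and in both libraries for Prox1 with Prox1os and for Irx3 with Irx3os. Reads in the shared bases were thus divided between a gene and its antisense partner, although these lie on opposite strands. The level of the partner is therefore not a measure independent of the gene. Gbx2, Prox1 and Irx3 were the factors with fractional expected counts, and the other 7 were whole in both libraries to within 0.005. Of the distinct 31-base stretches in the transcripts of Gbx2, 42.7% also occur, on either strand, in another gene, all of them in D130058E05Rik. For Prox1 this share was 1.23% and for Irx3 it was 6.08%. For Lef1 it was 14.6%, with 1177 of the 1291 shared stretches in Gm43352, which was not analysed here.

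The genes of neighbouring territories were set beside Gbx2 and Prox1. Their lists were chosen by name with earlier results of these data known, so their counts of signs only describe these libraries. Of 10 further thalamic genes all were detected, and 9 had a positive log2 ratio, beside 48.1% of all genes tested. The median was 0.28, and 2 genes passed 2-fold. These were Neurog2, a proneural factor of thalamic progenitors, at 14.3 TPM in replicate 1 and 4.34 TPM in replicate 2, and Olig3, a factor of the same progenitor zone, at 2.94 TPM and 1.12 TPM. The most abundant thalamic genes of the list stayed inside 2-fold, with Calb2, a calcium-binding protein of many brain regions, at 263 TPM in replicate 1 and 240 TPM in replicate 2, and a log2 ratio of 0.10. Lhx9, a LIM-homeodomain factor of thalamus and pretectum, had a log2 ratio of 0.25, and Slc17a6, the vesicular glutamate transporter of subcortical neurons, had one of -0.17.

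All 8 further pretectal genes were detected, and their median log2 ratio was -0.10. Gata3 stood at 71.4 TPM in replicate 1 and 77.2 TPM in replicate 2, Sox14 at 50.8 TPM and 63.9 TPM, and Pax6 at 21.8 TPM and 14.5 TPM. Gata3 and Sox14 are factors of inhibitory neurons in this region and Pax6 is a factor of its progenitors. Zic1, a zinc-finger factor of dorsal neural tissue, was the member of this list past 2-fold, at 17.4 TPM in replicate 1 and 7.62 TPM in replicate 2.

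As a list, the prethalamic genes were higher in replicate 1, as were Gbx2 and Prox1. Of 10, 9 were detected and 8 had enough counts. All 8 had a positive log2 ratio, with a median of 0.90, beside 48.1% positive among all genes tested. This list, too, was chosen with earlier results known, so the count is a description. Lhx5 was hardly above 0, at 0.02 (interval -0.11 to 0.15). Dlx2 and Dlx5, homeodomain factors of inhibitory neurons, passed 2-fold, with log2 ratios of 1.27 and 1.08. Isl1, a LIM-homeodomain factor, stood at 40.3 TPM in replicate 1 and 21.3 TPM in replicate 2. Lhx1, another, stood at 25.4 TPM and 21.4 TPM. The summed level of the list was 173 TPM in replicate 1 and 106 TPM in replicate 2. The 8 genes of the midbrain territory with enough counts had a median log2 ratio of -0.16, none past 2-fold, and a summed level of 346 TPM in replicate 1 and 419 TPM in replicate 2. The part of these gene groups in the difference of Gbx2 and Prox1 was not tested.

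**Figure D3:**
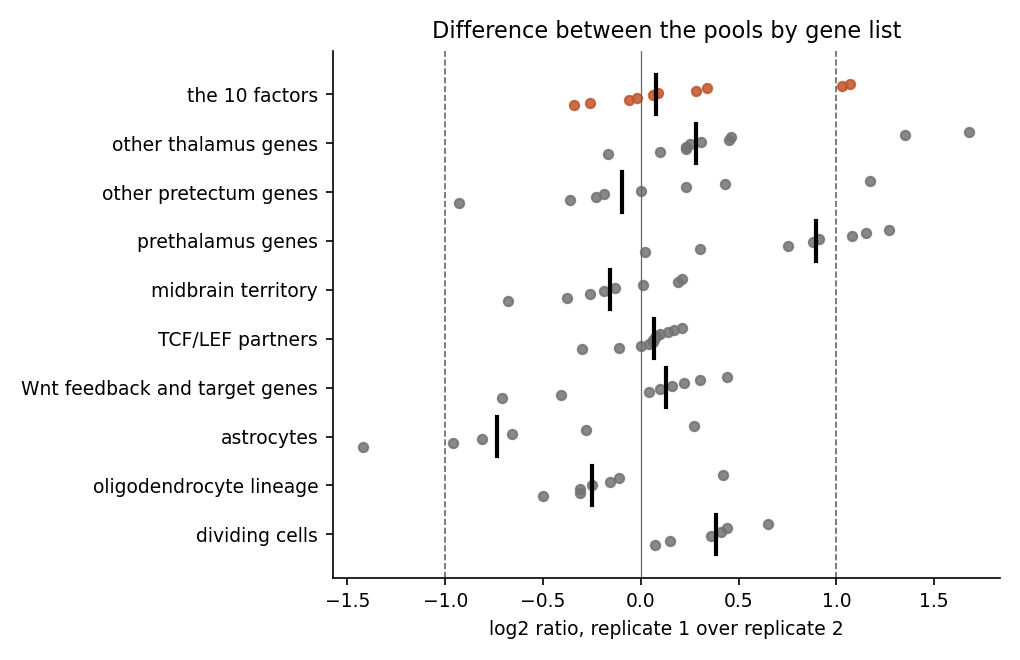
Log2 ratio, replicate 1 over replicate 2, of each gene with enough counts (points) in the 10 factors and in 9 gene lists, with the median of each list as a black bar and dashed lines at 2-fold. The bar of the prethalamic genes stands at 0.90 and that of the astrocyte genes at -0.74, and the 10 factors spread from -0.34 to 1.07.

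Markers of other cell types were read in the same way, from lists also chosen with earlier results of these data known. Of 7 astrocyte markers 6 were detected, and they were lower in replicate 1, with 5 of 6 ratios negative, a median log2 ratio of -0.74, and a summed level of 496 TPM in replicate 1 and 857 TPM in replicate 2, and Aqp4 passed 2-fold. Markers of dividing cells were higher in replicate 1 in 6 of 6 genes, beside 48.1% of all genes tested. Their median log2 ratio was 0.38, and their summed level 211 TPM in replicate 1 and 169 TPM in replicate 2. Oligodendrocyte lineage markers summed to 136 TPM in replicate 1 and 168 TPM in replicate 2, with all 7 detected and a median log2 ratio of -0.25. None of these lists had a marker at 0, and their part in the differences between the pools was not tested.

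Markers were also read for the sites where single factors are known outside the thalamus. Lymphatic endothelium, which depends on Prox1, had markers summing to 37.1 TPM in replicate 1 and 39.7 TPM in replicate 2, most of it from Pdpn, which other cells also express. Lyve1 was at 3.47 TPM and 4.24 TPM, and Flt4 at 1.33 TPM and 1.37 TPM. The 3 markers with enough counts had negative log2 ratios, opposite in sign to Prox1, with -0.32 for Lyve1, -0.17 for Pdpn and -0.03 for Flt4. Ccl21a, below the minimum count, was at 1.75 TPM in replicate 1 and 0.54 TPM in replicate 2. This came from 25 and 9 expected counts (log2 ratio 1.61, interval 0.51 to 2.94). General endothelial markers, all 7 detected, summed to 188 TPM in replicate 1 and 177 TPM in replicate 2. Of 8 markers of Purkinje cells and cerebellum, where Rora is abundant, 4 were detected, and the list summed to 28.8 TPM in replicate 1 and 33.6 TPM in replicate 2. Gabra6 had no count in replicate 1 and Ptf1a none in replicate 2. Of 8 markers of the cerebral cortex, where Rorb and Foxp2 are known, 5 were detected, with sums of 29.4 TPM and 35.5 TPM and none at 0. The cortical markers Neurod6 and Emx2 had log2 ratios of -0.46 and -0.49, and the cerebellar markers Slc1a6 and Car8 had ones of -0.51 and -0.15. The part of these markers in the levels and ratios of Prox1, Rora, Rorb and Foxp2 was not tested.

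Tcf7l2 and Lef1 were next compared with the rest of their family. The relatives Tcf7 and Tcf7l1 were low, at 2.72 TPM in replicate 1 and 1.89 TPM in replicate 2 for Tcf7, and at 3.87 TPM and 3.42 TPM for Tcf7l1. Tcf7l2 made 93.3% of the summed TPM of the family in replicate 1 and 90.2% in replicate 2. Lef1 made 6.05% in replicate 1 and 9.08% in replicate 2. The TPM of Tcf7l2 was 15.4-fold that of Lef1 in replicate 1 and 9.94-fold in replicate 2. Tcf7l2 had its higher level in replicate 1 and Lef1 in replicate 2.

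The cofactors of the family were all present. Of 12 partners all were detected and none passed 2-fold, with a median log2 ratio of 0.06. Aes, a corepressor relative of the Groucho proteins, stood at 507 TPM in replicate 1 and 493 TPM in replicate 2. Ctnnb1, which encodes beta-catenin, stood at 363 TPM and 346 TPM, and Ctbp1, a corepressor, at 322 TPM and 293 TPM. Tcf7l2 was thus above beta-catenin in TPM in both libraries. Of 10 feedback and target genes of Wnt signals 8 were detected, none passed 2-fold, and the median log2 ratio was 0.13. Nkd1, a feedback inhibitor, stood at 29.5 TPM in replicate 1 and 23.3 TPM in replicate 2. Tnfrsf19, a receptor, stood at 27.4 TPM and 23.7 TPM, and Ccnd1, a cyclin of the G1 phase, at 25.9 TPM and 17.5 TPM.

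Among the nuclear receptors, Rora made 74.0% of the summed TPM of Rora and Rorb in replicate 1 and 65.3% in replicate 2, and Rorb made 26.0% and 34.7%. The TPM of Rora was 2.85-fold that of Rorb in replicate 1 and 1.88-fold in replicate 2, while the sum was 59.8 TPM in replicate 1 and 55.1 TPM in replicate 2. Nr1d1 and Nr1d2, the REV-ERB repressors that bind the same elements, were low, at 2.94 TPM in replicate 1 and 4.33 TPM in replicate 2 for Nr1d1, and at 4.73 TPM and 4.38 TPM for Nr1d2.

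Foxp2 was one of several forkhead factors of its family in this tissue. It made 43.6% of the summed TPM of the FOXP genes in replicate 1 and 45.0% in replicate 2. Foxp1 stood at 65.6 TPM in replicate 1 and 66.0 TPM in replicate 2, and Foxp4 at 32.8 TPM and 29.8 TPM. Foxp3, the factor of regulatory T cells, stood at 0.12 TPM and 0.03 TPM. The sum was 174 TPM in each library. By contrast, the relatives of the homeodomain factors were almost silent, with Gbx1 at 0.18 TPM in replicate 1 and 0.16 TPM in replicate 2, and Prox2 at 0.58 TPM and 0.67 TPM.

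The 6 Iroquois genes lie in clusters of 3, with Irx1, Irx2 and Irx4 on chromosome 13 and Irx3, Irx5 and Irx6 on chromosome 8. The clusters gave similar sums, 36.0 TPM in replicate 1 and 36.2 TPM in replicate 2 on chromosome 13, and 33.6 TPM and 35.3 TPM on chromosome 8. Within chromosome 13, Irx2 made 79.7% of the sum in replicate 1 and 79.7% in replicate 2, and its TPM was 4.37-fold that of Irx1 in replicate 1 and 4.70-fold in replicate 2. Irx4 was at 0.73 TPM and 1.21 TPM. Within chromosome 8 the level was more even. Irx5 stood at 14.1 TPM in replicate 1 and 14.3 TPM in replicate 2, so the TPM of Irx3 was 1.02-fold and 1.03-fold that of Irx5, and Irx6 stood at 5.07 TPM and 6.39 TPM. The TPM of Irx2 was 1.99-fold that of Irx3 in replicate 1 and 1.97-fold in replicate 2.

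**Figure D4:**
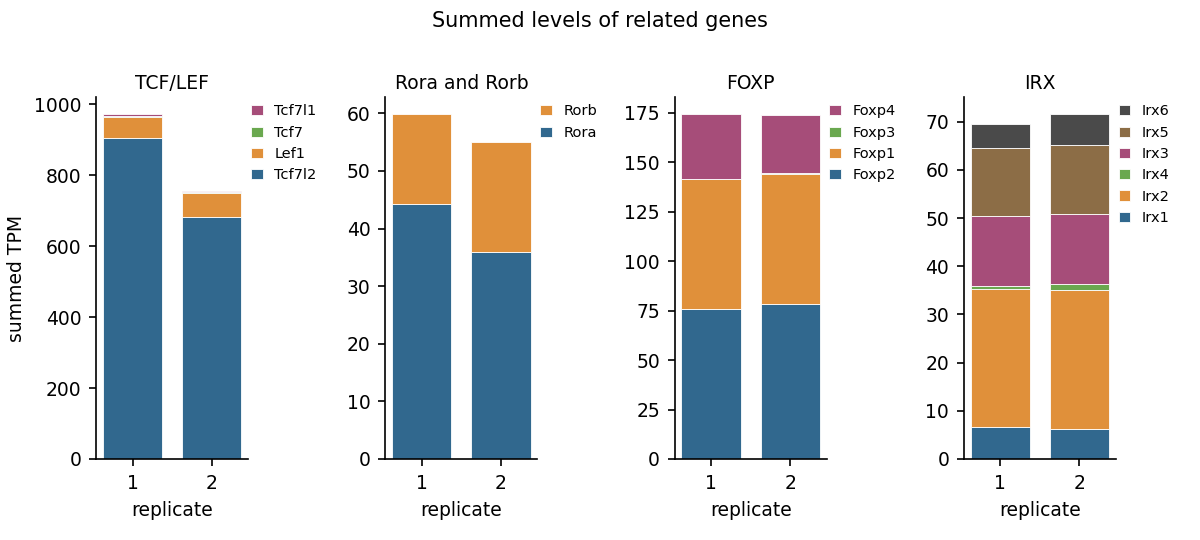
Summed TPM of the TCF/LEF family, of Rora and Rorb, and of the FOXP and IRX families in replicates 1 and 2, stacked by gene, each panel with its own axis from 0. Tcf7l2 fills 93.3% and 90.2% of the TCF/LEF bars, whereas the FOXP and IRX bars are shared by several genes and have nearly the same height in both libraries.

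The transcript tables give the share of the TPM of each gene that the quantification assigned to each annotated transcript. Tcf7l2 had 22 transcripts, of which 17 had the same length in the annotation used for names. The leading form, Tcf7l2-209, starts at the upstream end and held 49.9% in replicate 1 and 56.9% in replicate 2, with 29507 and 29524 expected counts. The next, Tcf7l2-203, starts 153 kb downstream and held 14.6% in replicate 1 and 13.3% in replicate 2, with 6711 and 5358 expected counts. Transcripts that start upstream of the fourth exon of Tcf7l2-209 held 54.7% in replicate 1 and 61.2% in replicate 2, a mean of 58.0 ± 4.57% (SD, n = 2). Those that start downstream of it held 33.7% and 27.3%, a mean of 30.5 ± 4.55%, and models of another length held the remaining 11.6% and 11.5%. In the annotation used for names these models also start upstream of that exon, so the upstream share given here leaves them out. The downstream group takes in 3 forms annotated as processed transcripts, without a coding sequence, with 8.01% in replicate 1 and 6.51% in replicate 2. Its share is therefore not that of a short coding form. The expected counts of Tcf7l2-209 were thus nearly equal in the libraries, and those of Tcf7l2-203 were higher in replicate 1, the library of lower depth. Calculated from TPM, which also takes in transcript length, the log2 ratio of Tcf7l2 was 0.41, against 0.28 from scaled counts.

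The forms differ in what they encode. The coding sequence of Tcf7l2-209 in the annotation has 1377 bases and that of Tcf7l2-203 has 897. The amino end of TCF/LEF proteins holds the beta-catenin binding domain, and short Tcf7l2 forms that lack it are known to act as repressors. The beginnings of the coding sequences are shown because they mark this difference, with capitals for bases that are not coding in the other transcript. The coding sequence of Tcf7l2-209 begins at chr19:55742342 and has 483 such bases, of which the leading 90 are shown. That of Tcf7l2-203 begins at chr19:55895635, has 3 such bases, and then runs on in the shared sequence. Both are spliced transcript sequences, 5′ to 3′.
Tcf7l2-209: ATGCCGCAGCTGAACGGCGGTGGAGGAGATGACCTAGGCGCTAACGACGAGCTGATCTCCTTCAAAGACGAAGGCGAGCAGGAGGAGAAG
Tcf7l2-203: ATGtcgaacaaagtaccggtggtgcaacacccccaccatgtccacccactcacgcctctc

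The sequence before each start was read from RefSeq (GRCm38.p6), as the 250 bases upstream of an annotated start, because the internal start rests on transcript models. The upstream window, chr19:55741560-55741809, belongs to a RefSeq start 522 bases from that of Tcf7l2-209 and has a GC content of 72.8% with 30 CG dinucleotides. The internal window, chr19:55895071-55895320, belongs to a RefSeq start 189 bases from that of Tcf7l2-203 and has a GC content of 40.8% with 7 CG dinucleotides. Over all 32851 RefSeq windows of this length the median GC content was 52.4%, with quartiles of 45.2% and 61.2%, and the median number of CG dinucleotides was 6, with quartiles of 2 and 16. The upstream window was thus above the upper quartile and the internal window below the lower quartile in GC content. In these sequences, on the plus strand, each CG dinucleotide is in capitals.
Tcf7l2 upstream start: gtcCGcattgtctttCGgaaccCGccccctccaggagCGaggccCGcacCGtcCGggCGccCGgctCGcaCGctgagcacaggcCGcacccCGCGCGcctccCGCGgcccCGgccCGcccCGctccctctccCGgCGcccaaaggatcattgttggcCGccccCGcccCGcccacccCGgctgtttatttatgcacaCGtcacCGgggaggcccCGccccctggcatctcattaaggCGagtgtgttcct
Tcf7l2 internal start: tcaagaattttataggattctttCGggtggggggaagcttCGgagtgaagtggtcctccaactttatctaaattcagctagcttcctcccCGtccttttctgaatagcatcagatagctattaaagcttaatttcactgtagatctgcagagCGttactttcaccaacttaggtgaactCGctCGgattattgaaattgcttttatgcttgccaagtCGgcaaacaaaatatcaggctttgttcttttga

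Rorb also used 2 annotated starts, 110 kb apart, and their order by share of TPM was not the same in the libraries. The transcript from the upstream start, Rorb-203, held 58.3% of the TPM of the gene in replicate 1 and 47.5% in replicate 2. The 4 transcripts of the downstream start held 41.7% in replicate 1 and 52.5% in replicate 2, most of it as Rorb-201 with 28.6% and 39.9%. The rest of the downstream start came from forms annotated as retained introns, with 13.1% in replicate 1 and 12.7% in replicate 2. With these counted in, the upstream start was the larger in replicate 1 and the smaller in replicate 2. Its mean of 52.9 ± 7.67% (SD, n = 2) does not separate the starts. Between the main coding forms there was no change of order, as Rorb-203 was above Rorb-201 in both libraries. In expected counts, which are not corrected for length, Rorb-203 had 1541 in replicate 1 and 1802 in replicate 2, and Rorb-201 had 712 and 1426. The retained introns had 53 and 111 (Rorb-205) and 32 and 9 (Rorb-204). By counts the upstream start was thus the larger in both libraries. The coding sequences, of 1377 bases in Rorb-203 and 1410 in Rorb-201, differ at the amino end only, before the DNA-binding domain. The longer form is known from the retina and pineal gland of rodents. The 7 markers of retina and pineal gland together summed to 2.13 TPM in replicate 1 and 2.12 TPM in replicate 2, and Asmt had no count in either library. The beginnings of the coding sequences, on the minus strand from chr19:19110558 for Rorb-203 and from chr19:19001046 for Rorb-201, are shown with capitals for bases that are not coding in the other form, 7 in Rorb-203 and 40 in Rorb-201.
Rorb-203: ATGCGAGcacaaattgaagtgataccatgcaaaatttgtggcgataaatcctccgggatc
Rorb-201: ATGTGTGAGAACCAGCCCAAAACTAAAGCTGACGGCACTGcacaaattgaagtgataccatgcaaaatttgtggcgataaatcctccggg

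The windows before the Rorb starts differed in composition in the same direction as those of Tcf7l2. The window before Rorb-203, chr19:19111197-19111446, had a GC content of 66.0% and 18 CG dinucleotides. The window before Rorb-201, chr19:19001118-19001367, had a GC content of 39.2% and 4 CG dinucleotides. Both end directly at the annotated start. They are printed on the minus strand, 5′ to 3′, with each CG dinucleotide in capitals.
Rorb upstream start: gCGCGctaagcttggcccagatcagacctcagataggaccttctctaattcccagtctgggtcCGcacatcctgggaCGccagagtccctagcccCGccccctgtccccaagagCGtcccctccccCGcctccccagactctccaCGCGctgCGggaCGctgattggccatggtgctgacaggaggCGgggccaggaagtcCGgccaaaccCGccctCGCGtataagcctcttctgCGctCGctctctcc
Rorb downstream start: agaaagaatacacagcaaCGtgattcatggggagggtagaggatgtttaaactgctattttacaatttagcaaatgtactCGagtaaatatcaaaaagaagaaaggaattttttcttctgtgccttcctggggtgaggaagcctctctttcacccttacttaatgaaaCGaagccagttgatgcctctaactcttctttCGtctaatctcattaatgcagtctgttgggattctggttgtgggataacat

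Rora, by contrast, came mainly from an internal start. Rora-202 held 86.1% of the TPM of the gene in replicate 1 and 78.9% in replicate 2. Rora-201, which starts 636 kb upstream, held 8.8% and 8.28%. In expected counts the gap was smaller, with 1756 for Rora-202 in replicate 1 and 1525 in replicate 2 against 777 and 692 for Rora-201, since the models have 2591 and 10878 bases. All transcripts from the most upstream start together held 13.9% in replicate 1 and 20.8% in replicate 2. Both forms are known from mouse brain, and their proteins differ at the amino end. The coding sequences, of 1401 bases from chr9:69290021 in Rora-202 and 1569 bases from chr9:68653807 in Rora-201, are shown to where they become identical, with capitals for the 28 and 196 bases not coding in the other form.
Rora-202: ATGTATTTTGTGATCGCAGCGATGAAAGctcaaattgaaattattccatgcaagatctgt
Rora-201: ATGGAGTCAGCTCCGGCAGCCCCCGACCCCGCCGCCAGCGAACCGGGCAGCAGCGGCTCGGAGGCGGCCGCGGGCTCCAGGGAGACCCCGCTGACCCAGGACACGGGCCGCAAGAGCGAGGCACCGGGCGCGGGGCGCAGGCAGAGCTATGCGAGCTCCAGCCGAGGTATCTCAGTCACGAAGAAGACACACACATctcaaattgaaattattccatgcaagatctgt

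The leading transcripts of Foxp2 start 284 kb apart, had nearly equal shares and have coding sequences of the same length. Foxp2-207, from the upstream start, held 33.9% in replicate 1 and 30.0% in replicate 2. Foxp2-201, from the next start group, held 31.3% and 30.4%, so the leading transcript was Foxp2-207 in replicate 1 and Foxp2-201 in replicate 2. Both have a coding sequence of 2142 bases that begins at the same base. The next start group also holds Foxp2-204, with 2079 coding bases and 8.03% in replicate 1 and 9.29% in replicate 2, and Foxp2-203, with 249 coding bases and 9.66% and 7.47%. All transcripts of the upstream start group held 42.3% in replicate 1 and 37.4% in replicate 2, and those of the next group held 49.8% and 47.2%. Foxp2-206, a form annotated as a target of nonsense-mediated decay, held 4.1% and 11.0%.

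Lef1 came almost wholly from its upstream start, with 94.0% in replicate 1 and 94.3% in replicate 2, and its forms differed by splicing. Lef1-204 held 67.8% in replicate 1 and 71.7% in replicate 2, Lef1-202 held 18.8% and 15.5%, and Lef1-201 held 7.36% and 7.1%. The sixth exon, 84 bases at chr3:131191023-131191106, is a cassette exon whose use is known to change when human T cells are activated. Forms that hold it made 7.36% in replicate 1 and 7.1% in replicate 2, a mean of 7.23 ± 0.184% (SD, n = 2). The eleventh exon, of 41 bases, was held by forms with 26.2% and 22.6%. The sixth exon is shown in capitals between 15 coding bases on each side.
Lef1-201 exon 6: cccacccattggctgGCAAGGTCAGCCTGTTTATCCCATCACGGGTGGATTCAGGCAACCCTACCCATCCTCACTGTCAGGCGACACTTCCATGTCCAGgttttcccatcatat

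The remaining factors had simpler transcripts. Prox1-202 held 72.1% in replicate 1 and 74.2% in replicate 2, and all 3 forms of Prox1 have the same coding sequence of 2211 bases. For Gbx2 the coding form Gbx2-201 held 75.3% in replicate 1 and 72.3% in replicate 2, and Gbx2-202, annotated as a retained intron, held 24.7% and 27.7%. Expected counts of both Gbx2 forms were higher in replicate 1, with 1506 in replicate 1 and 792 in replicate 2 for Gbx2-201, and 272 and 167 for Gbx2-202. Irx1 has 1 transcript. Irx2-201, with a coding sequence of 1422 bases, held 68.3% in replicate 1 and 60.6% in replicate 2, and Irx2-205, a form of 559 bases, held 16.7% and 25.0%. The main model of Irx3 has another length in the annotation used for names and is not described.

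**Figure D5:**
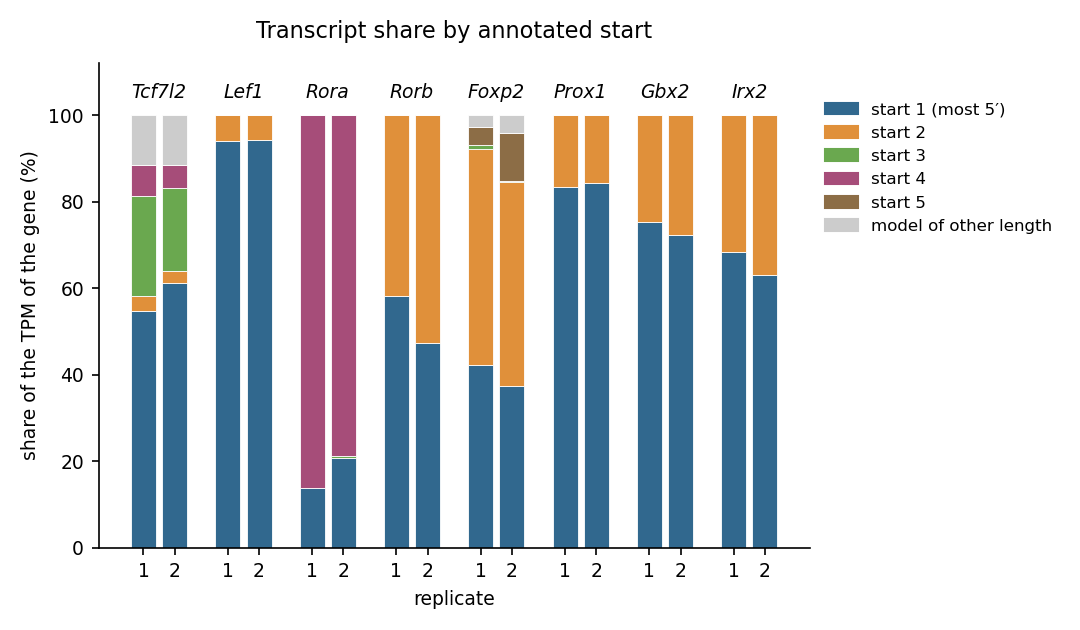
Share of the TPM of each gene by annotated start, in replicates 1 and 2, with start groups numbered from the 5′ end of the gene and models of another length in grey. Start 1 of Tcf7l2 fills 54.7% and 61.2%, Rora is mostly start 4, and the bars of Rorb cross, with start 1 at 58.3% in replicate 1 and 47.5% in replicate 2.

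The RefSeq windows of 250 bases were searched for the core letters that TCF/LEF and ROR proteins are known to bind, CTTTGA and AGGTCA, on both strands. There were 14 windows for 8 of the 10 factors, with Foxp2 and Irx1 not matched. CTTTGA was found in 1 window, an internal one of Lef1, with 2 matches, and AGGTCA was in none. Of all 32851 windows, 13.8% held CTTTGA and 14.0% held AGGTCA. No window held both, and the matches describe letters, not binding.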

How the data were processed

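Per the deposited readme, reads were aligned to mm10 and quantified against GENCODE M4. Not given in the sources used here are the aligner, the quantifier and the use of strand. Per the file headers, the deposited expected count is an estimated, unnormalized read number with shared reads divided among features, the deposited TPM is corrected for effective length, and the isoform share is the percent of a gene's TPM given to 1 transcript. Posterior means were deposited beside them. Symbols, coordinates and transcript models came from GENCODE M21 on the same assembly, joined by Ensembl identifier without version. Transcripts were described only where both releases give the same length, apart from the starts of the other Tcf7l2 models. Replicate numbers come from the labels.

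The libraries summed to 31830355 (replicate 1) and 36576263 (replicate 2) expected counts. Ratios used rounded expected counts for TMM factors (edgeR 4.0.16), with DESeq2 1.42.0 size factors, TPM, posterior means, other added counts, minimum counts and thresholds as alternatives. The ratio script was tested on simulated data. Intervals are exact binomial (95%) and levels allowed by no count are 3 counts. Neither goes beyond the error of counting, because PCR copies of a molecule were not marked. Start sites within 1000 bases formed a group. Calculations ran in Python 3.11.15 and R 4.3.3. The 10 factors, the 11 related lists and the 9 marker lists were chosen with earlier results of these data known. Named genes were all 10 factors, family relatives, the 3 most abundant genes of each other related list, list genes past 2-fold, overlapping genes at 1 TPM or more in a library, and the 3 genes nearest to Gbx2; some markers were named after their values were seen, and some genes that the rule takes are not reported here. No count, TPM or percent column of the gene and transcript tables was left unmapped to a replicate.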

Additional observations from a re-analysis of the deposited data

How the results depend on the processing

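All 10 factors were detected under the 5 alternatives tried (a minimum of 0.5 or 5 TPM, posterior mean TPM, and either library alone). The factors past 2-fold were Gbx2 and Prox1, 2 of 10, with DESeq2 size factors, posterior mean counts, 1 added count or the ratio of deposited TPM. The lower minimum counts could not change this, because every factor already met the minimum of 50. At a 1.5-fold threshold Gbx2 and Prox1 had to pass, and no other factor did. The count over all genes was 93, and it was between 87 (posterior mean counts) and 103 (ratio of deposited TPM) with DESeq2 size factors, posterior mean counts, 1 added count or the ratio of deposited TPM. It was 497 when a mean of 10 expected counts sufficed, 4758 with no minimum and 496 at a 1.5-fold threshold, where fewer counts or a lower threshold let more genes pass. With 1 library alone, 5 to 8 of the 10 factors kept the rank of the mean of both, 5 without replicate 1 and 8 without replicate 2, and the leading transcript was the same for 9 to 10 of the 10, Foxp2 being the exception. The log2 ratio of Irx2 was 0.09 on the TMM scale and -0.01 by deposited TPM, and no other factor's ratio changed sign. Single values that moved by more than their spread were the log2 ratio of Tcf7l2 (0.41 by deposited TPM) and the posterior mean TPM of Irx2 (28.6) and Irx3 (14.2), and also the posterior share of the leading Irx3 transcript. No paired analysis was possible because the series has 1 group. The smallest depth behind a factor was that of Irx1, with 276 expected counts in replicate 1 and 301 in replicate 2, where the interval of the log2 ratio ran from -0.18 to 0.30.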
